A study of Mus musculus with 4 samples.

Results

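The lysosomal cathepsins and the cysteine protease inhibitor cystatin B were examined by single-cell RNA sequencing of mouse brown adipose tissue (BAT). The cells belonged to its stromal vascular fraction (SVF), which is what a collagenase digest leaves without the adipocytes. The 10 genes were taken by symbol from the 32285 genes of the count matrices: Ctsb, Ctsl, Ctsk, Ctsz, Ctss, Ctsh, Ctsc, Ctsd, Ctsa and Cstb. None of them was used to choose cells. Of the 4 libraries, 1 came from lean wild-type (WT) mice at 10 weeks of age, 1 from db/db mice at 8 weeks (8w db/db), 1 from db/db mice at 16 weeks (16w db/db) and 1 from mice on a high-fat diet (HFD). By the labels all mice were C57BL6/J, the db/db genotype being a leptin receptor mutation that leads to obesity and diabetes, whereas the study's methods name a B6.BKS(D)-Leprdb/J line. All mice were fasted before BAT was taken. An age of 10 weeks was recorded for the HFD mice, but the methods place the start of the diet at that age. The age of the HFD mice is thus not settled. The 10 weeks of the WT mice are likewise the recorded age, whereas the study's figure legends describe WT mice of 8 and 16 weeks. By the recorded age the WT mice match neither db/db age. By the methods each library held a pool of 3 male mice, so no replicate exists and no test was run between conditions.

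Cathepsins are the main proteases of the lysosome. They are made as proenzymes, carried to the lysosome by mannose 6-phosphate receptors and activated in its acid lumen, where they degrade protein taken up by the cell. Cathepsins B, L, K, Z, S, H and C are cysteine proteases, cathepsin D is an aspartic protease and cathepsin A is a serine carboxypeptidase that also protects other lysosomal enzymes. Cystatin B is a cytosolic inhibitor that binds cysteine cathepsins which have leaked from the lysosome. Lipid-associated macrophages (LAMs) are macrophages of obese adipose tissue with a program of lipid uptake and lysosomal breakdown, whereas perivascular macrophages (PVMs) are resident cells marked by Lyve1 and Folr2.

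After the quality limits 5944 cells remained in WT, 11648 in 8w db/db, 5833 in 16w db/db and 5462 in HFD, with 26558173 to 53420105 unique molecular identifiers (UMIs) in all and medians of 2733 to 6218 UMIs per cell. Levels are UMIs summed over the named cells, given as CPM (UMIs per 1e+06 UMIs of those cells). As each molecule is read once at its 3′ end, no gene length enters. Every 95% interval is an exact one and covers counting error only. The libraries differed in ways other than their group. The median mitochondrial share of kept cells ran from 0.799% in 16w db/db to 10.5% in HFD, and 1.04% and 68.5% of the barcodes of these libraries exceeded the mitochondrial limit of 15%. Against the methods, which name male mice, Xist stood at 207 CPM in 16w db/db and at 0.187 to 0.688 CPM in the other libraries, and the 4 Y-linked genes counted stood at 17.7 CPM in 16w db/db and at 164 to 188 CPM elsewhere. Each pair of libraries shared 7 to 25 cell barcodes, at most 0.429% of the smaller library.

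Cells were gated on raw marker UMIs. A barcode was called macrophage, stromal or endothelial when it held at least 3 UMIs from at least 2 markers of that list and at least 80% of its marker UMIs over 9 lineage lists came from it. The macrophage gate (with C1qa, C1qb, C1qc, Csf1r, Adgre1, Fcgr1 and Ms4a7 among its markers) took 1023 cells in WT, 2369 in 8w db/db, 2171 in 16w db/db and 1251 in HFD, with median depths of 5269 to 5985 UMIs. The stromal gate took 4317, 6726, 1193 and 1640 cells in that order. The endothelial gate took 1224 cells in 16w db/db and 814 in HFD but only 9 in WT and 59 in 8w db/db. Those of 16w db/db held an erythrocyte list, the hemoglobin genes and Alas2 together, at 123391 CPM.

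Positions are given for GRCm38. Ctsb lies on chromosome 14 (63122462 to 63145923, plus strand), Ctsl on chromosome 13 (64359337 to 64370890, minus), Ctsz on chromosome 2 (174427493 to 174439039, minus), Ctsa on chromosome 2 (164832873 to 164841032, plus), Ctsh on chromosome 9 (90054152 to 90076089, plus), Ctsc on chromosome 7 (88278085 to 88310888, plus), Ctsd on chromosome 7 (142375911 to 142388038, minus) and Cstb on chromosome 10 (78425669 to 78427622, plus). Ctsk (95499256 to 95509362) and Ctss (95526786 to 95556403) are neighbours on the plus strand of chromosome 3, with 17423 bases between them. In macrophages Ctss was the higher of the pair and in stromal cells Ctsk was, in all 4 libraries.

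The promoters of 7 of the 10 genes, with 8 start sites, were found in the RefSeq promoter table of GRCm38.p6, and those of Ctsb, Ctsh and Cstb were not in it. A pair of motifs of basic helix-loop-helix factors were searched on both strands of the 300 bases around each start, because the factors TFEB, TFE3 and MITF, which bind such E-boxes, are known regulators of lysosomal genes. The E-box CACGTG, its own reverse complement, was held by 2349 of the 32851 promoters of the table (7.15%), and TCATGTGA, reverse TCACATGA, by 324 (0.986%). The 2 motifs share no occurrence. The starts are those of that table and can lie inside the annotated gene. Every stretch printed below around a motif, except the first, touches an annotated exon and lies within the gene position given above. The sites in the genes of interest read as follows, 5′ to 3′ on the gene's strand, with the motif in capitals.

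Ctsd, first base 245 before the start, chr7:142388048-142388077 (minus): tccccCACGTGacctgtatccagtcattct
Ctsd, first base 98 before the start, chr7:142387908-142387937 (minus): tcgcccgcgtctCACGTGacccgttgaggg
Ctsa, first base 12 before the start, chr2:164833749-164833778 (plus): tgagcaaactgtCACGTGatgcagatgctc
Ctsl, first base 236 before the start, chr13:64370739-64370768 (minus): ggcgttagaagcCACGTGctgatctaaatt
Ctss, first base 18 after the start, chr3:95526793-95526822 (plus): ttgtggatgctTCATGTGAcaagctccgat

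Ctsa held a second CACGTG with its first base 5 after the same start. Both Ctsa sites belong to the start whose window runs from 164833523 to 164833822 on chromosome 2. The other Ctsa window (164832622 to 164832921), which spans the annotated start of the gene, held no match to either motif. No match lay in the windows of Ctsk, Ctsc and Ctsz either, which says only that these letters are not there. The 150 bases before the start are shown for Ctsk and Ctss, the neighbours with the least similar pattern among the members, and for Ctsc, the member at least 2-fold below WT in macrophages of each obese library.

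Ctsk, chr3:95499060-95499209 (plus): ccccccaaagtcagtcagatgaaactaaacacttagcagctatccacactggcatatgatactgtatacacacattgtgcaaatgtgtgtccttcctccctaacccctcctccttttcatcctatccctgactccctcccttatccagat
Ctss, chr3:95526636-95526785 (plus): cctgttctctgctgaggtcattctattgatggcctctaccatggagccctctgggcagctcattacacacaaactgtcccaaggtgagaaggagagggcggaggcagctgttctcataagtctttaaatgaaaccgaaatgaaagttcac
Ctsc, chr7:88277935-88278084 (plus): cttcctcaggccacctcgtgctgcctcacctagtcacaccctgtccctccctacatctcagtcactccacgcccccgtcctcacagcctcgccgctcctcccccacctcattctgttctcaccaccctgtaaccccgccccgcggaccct

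These windows held 46.7% G and C in Ctsk, 48.7% in Ctss and 65.3% in Ctsc.

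To describe where the 10 genes are expressed, their levels were first compared between lineages. Together they made up 0.421% of all kept UMIs in WT, 0.709% in 8w db/db, 1.34% in 16w db/db and 0.884% in HFD. In macrophage-gated cells their summed level was 10591 CPM in WT, 13334 in 8w db/db, 18138 in 16w db/db and 19074 in HFD, against 2848, 3522, 3960 and 4403 CPM in stromal-gated cells. Ctsb was the most abundant member in macrophages of every library, with 29.6% to 43.9% of the members' UMIs. In stromal cells Ctsl led in WT, 8w db/db and HFD (36.5%, 29.1% and 24.0%), whereas in 16w db/db Ctsb (23.2%) and Ctsl (22.7%) were nearly level.

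A test within libraries compared macrophage-gated with stromal-gated sums of the same mice (edgeR quasi-likelihood, 4 libraries as blocks). Of the 10 members 7 were higher in macrophages and none was lower, against 25.9% of 13125 genes higher and 26.9% lower. Ctss, a protease of antigen processing, had the largest difference of the 10 (log2 difference 4.91 ± 0.57 SE, adjusted p = 0.0014), followed by Ctsd (2.90 ± 0.19, adjusted p = 0.000494), Ctsb (2.85 ± 0.21, adjusted p = 0.000535) and Ctsc (2.65 ± 0.81, adjusted p = 0.037). Ctsz, Ctsa and Cstb were higher by 2.09 to 2.15 on the log2 scale. Ctsl (1.42 ± 0.50, adjusted p = 0.0581), Ctsk (-0.76 ± 0.89, adjusted p = 0.4998) and Ctsh (0.32 ± 0.44, adjusted p = 0.559) did not pass. These 3 genes were also the ones whose order between the lineages was not the same in all 4 libraries. Without the 8w db/db library the call of Ctsc was lost (adjusted p = 0.133).

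Ctsl is a broad endopeptidase of the lysosome. It stood in macrophages at 668 CPM in WT, 2513 in 8w db/db, 4312 in 16w db/db and 3207 in HFD, whereas in stromal cells it stood at 1039, 1026, 899.5 and 1058 CPM. It was thus the higher in stromal cells of WT and the higher in macrophages of each obese library, with a stromal level that moved little. Without the WT library the difference passed the test (1.96, adjusted p = 0.0015).

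Ctsk, the collagen-degrading cathepsin best known from osteoclasts, stood in stromal cells at 308 CPM in WT, 430 in 8w db/db, 475.5 in 16w db/db and 518 in HFD. In macrophages it stood at 13.5 CPM (95% interval 10.9 to 16.6) in WT, 294 (285 to 303) in 8w db/db, 827 (813 to 841) in 16w db/db and 328 (316 to 340) in HFD. Macrophages accounted for 0.8% of the Ctsk UMIs of WT and for 24.1%, 73.5% and 33.9% of those of 8w db/db, 16w db/db and HFD, while stromal cells accounted for 98.1%, 64.9%, 12.3% and 52.6%. These shares also follow the share of all UMIs that came from macrophages, which was 15.3%, 29.3%, 59.7% and 28.95% in that order.

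Ctsh, an aminopeptidase, showed the opposite order. In macrophages it stood at 467 CPM in WT, 299 in 8w db/db, 145 in 16w db/db and 287 in HFD, and in stromal cells at 173, 244.5, 310.5 and 354.5 CPM. Its level in macrophages was above that of stromal cells in WT and 8w db/db and below it in 16w db/db and HFD.

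In endothelial-gated cells Ctsl was the leading member in 16w db/db (765 CPM), and in HFD it was level with Ctsb (410 and 419 CPM, with intervals that overlap). Ctsb stood at 283 CPM in 16w db/db. Ctsk, Ctsh and Ctsc were near their lowest, at 3.71 to 20.1 CPM, whereas Cstb stood at 119 CPM in 16w db/db and 93.8 CPM in HFD. With 9 cells in WT no comparison with lean endothelium was possible.

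**Figure D1:**
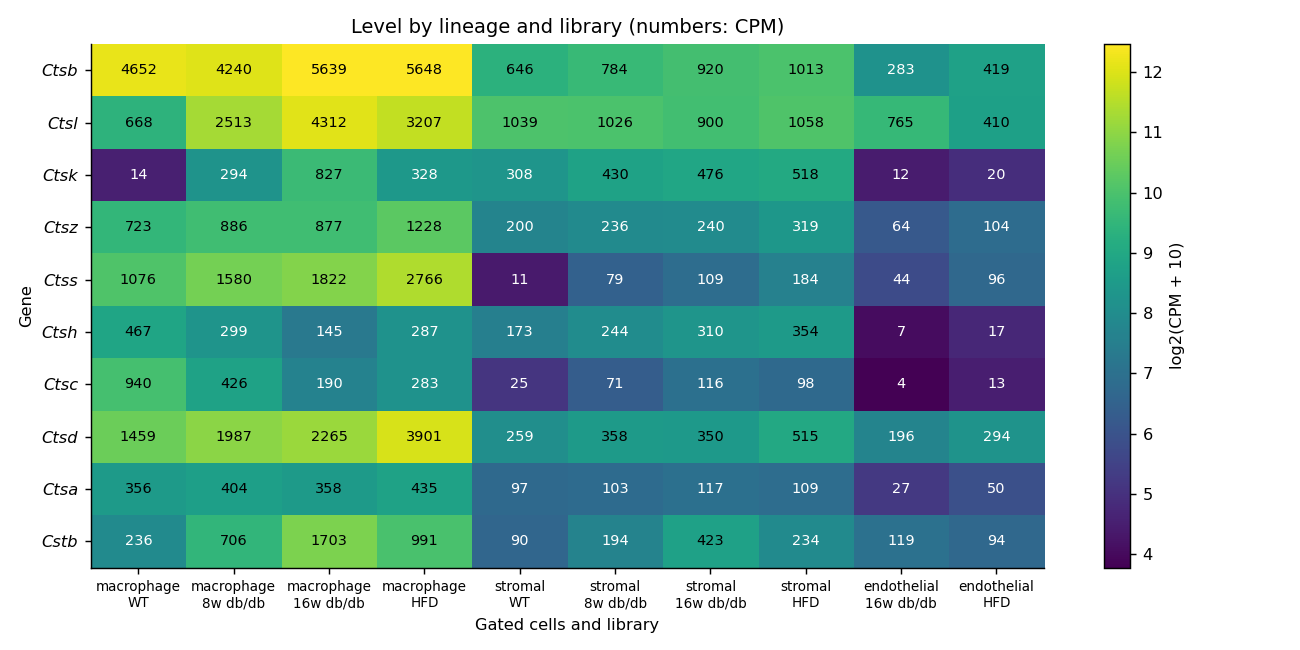
Heatmap with the 10 genes down the side and the macrophage-, stromal- and endothelial-gated cells of each library (sums of at least 100 cells) along the bottom, coloured by log2(CPM + 10) and with the CPM written in each cell. Ctss and Ctsc are far higher in macrophages than in stromal cells of WT (1076 and 11.4 CPM for Ctss), whereas Ctsl, Ctsk and Ctsh change order between these lineages from library to library.

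The comparison of lean with obese BAT was then made in macrophage-gated cells. Ctsl, Ctsk and Cstb were higher than in WT in all 3 obese libraries, Ctss and Ctsd passed 2-fold only in HFD, and Ctsc was lower in all 3. Ctsb, Ctsz and Ctsa stayed within 2-fold of WT in each. A gene was called when it differed at least 2-fold on the log2(CPM + 10) scale, among genes of at least 20 CPM in either library. Ratios share the WT library, and a call rests on 1 library of each kind. The call of Ctsc in 8w db/db was lost when cells were thinned to 1000 UMIs before gating (log2 ratio -0.63) and by the mean of per-cell CPM (-0.79), and that of Ctsh in 16w db/db was lost after thinning (-0.94).

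In 8w db/db 3 of the 10 members were called higher, against 3.73% of all genes, and 1 lower (3.31%). In 16w db/db 3 were higher (17.3%) and 2 lower (18.7%). In HFD 5 were higher (10.2%) and 1 lower (8.69%). The median log2 ratio of the 10 members was 0.37, 0.45 and 1.05 in 8w db/db, 16w db/db and HFD, and that of all genes 0.05, -0.05 and 0.17. At 16w db/db the members' counts are to be read against a background in which 1129 of 6031 genes were lower and 1043 higher.

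Ctsk had the largest ratio of the 10. Without the added 10 CPM it was 21.7-fold above WT in 8w db/db, 61.1-fold in 16w db/db and 24.2-fold in HFD, and the log2 intervals of these folds were 4.14 to 4.75, 5.64 to 6.24 and 4.30 to 4.91. The WT value rests on 93 UMIs. With cells thinned to 1000 UMIs before gating, the Ctsk levels were 17.4 CPM in WT, 157 in 8w db/db, 556 in 16w db/db and 214.5 in HFD, and the log2 ratios with 10 CPM added were 2.61, 4.37 and 3.04 in place of 3.69, 5.15 and 3.84. When every cell was thinned to 1000 UMIs, 0.983% of WT macrophages held a Ctsk UMI, against 7.57% in 8w db/db, 21.75% in 16w db/db and 11.75% in HFD, with 6, 85, 79 and 0 cells left out as too shallow. The unthinned shares were 7.43%, 19.4%, 34.2% and 30.5%. Among endothelial-gated cells 0.626% held a UMI in 16w db/db and 2.59% in HFD after thinning. The endothelial median depth before thinning was 1024 UMIs in 16w db/db, close to the 1000 UMIs needed. The share in WT macrophages lies between these values. With 9 endothelial cells the WT library itself gave no such share. Stromal cells held 77.6% of all UMIs in WT, against 17.4% in 16w db/db and 28.4% in HFD, so carry-over need not be alike. The part of carry-over in the WT share was not tested.

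Ctsk was unevenly spread among macrophages. In 16w db/db the tenth of cells with the most Ctsk held 76.2% of its thinned UMIs, with up to 15 in a cell, whereas the same fraction held 23.4% of the Ctsb UMIs. The stromal marker list was measured in the same cells. Because it is one of the lists of the gate, its level there is capped by the gate. Its summed level in macrophages was 786 CPM in WT, 411 in 8w db/db, 20.9 in 16w db/db and 312 in HFD, or 1.97%, 0.897%, 0.0423% and 0.651% of its stromal level. Ctsk in macrophages stood at 4.39%, 68.4%, 174% and 63.3% of its stromal level. The part of stromal RNA in the Ctsk level was not tested.

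Ctsl was 3.76-fold above WT in 8w db/db, 6.45-fold in 16w db/db and 4.8-fold in HFD. After thinning it stood at 620 CPM in WT and at 1400, 2495 and 2120 CPM in the obese libraries, and its log2 ratio in 8w db/db was 1.16 in place of 1.90. Cstb, the inhibitor, stood at 236 CPM in WT, 706 in 8w db/db, 1703 in 16w db/db and 991 in HFD, which is 2.99-, 7.21- and 4.20-fold above WT. Both genes were lowest in WT and highest in 16w db/db. The study lists Ctsb and Ctsl among its LAM genes, so their direction here is not independent evidence.

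Ctsc, the dipeptidyl peptidase that activates granule serine proteases, stood at 940 CPM in WT, 426 in 8w db/db, 190 in 16w db/db and 283 in HFD. These levels correspond to 0.454, 0.202 and 0.301 of the WT level. Ctsh was called lower in 16w db/db only, with log2 ratios of -0.63, -1.62 and -0.68. Both were highest in WT and lowest in 16w db/db, the mirror image of Ctsl and Cstb.

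Ctsd, the aspartic protease, stood at 1459 CPM in WT, 1987 in 8w db/db, 2265 in 16w db/db and 3901 in HFD. Ctss stood at 1076, 1580, 1822 and 2766 CPM. HFD was the highest library for both, with log2 ratios of 1.41 and 1.35. Ctsb, a carboxydipeptidase and endopeptidase, ranged from 4240 CPM in 8w db/db to 5648 CPM in HFD, and Ctsa from 356 CPM in WT to 435 CPM in HFD. Ctsz, a carboxypeptidase, was lowest in WT (723 CPM) and highest in HFD (1228 CPM).

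**Figure D2:**
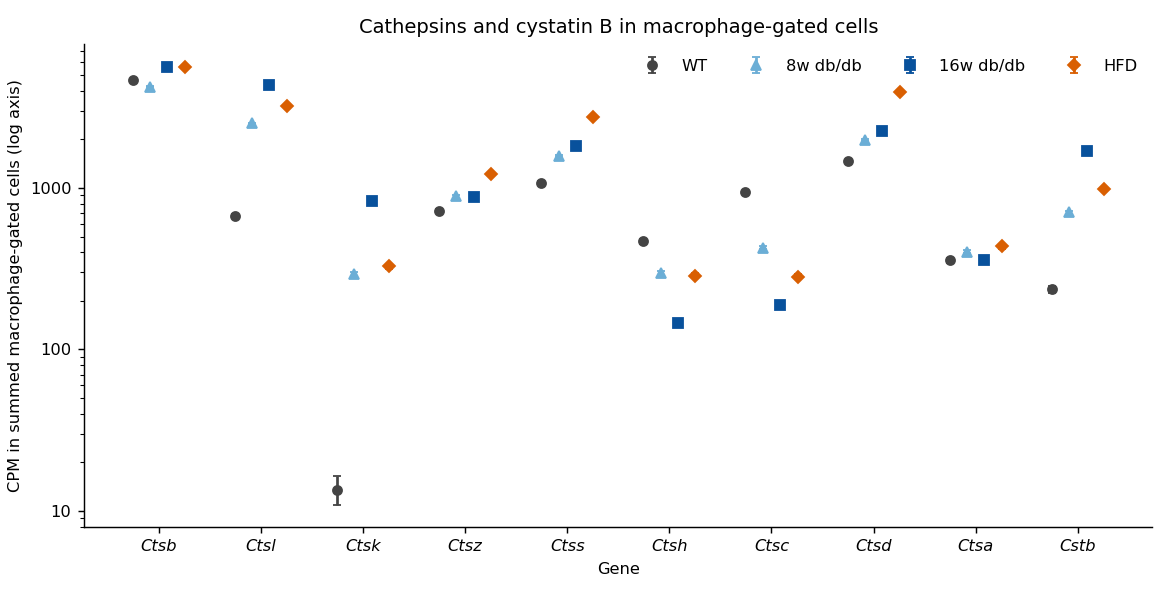
Level of each of the 10 genes in macrophage-gated cells in CPM (log axis) for WT, 8w db/db, 16w db/db and HFD, with 95% counting intervals. Ctsk spans 13.5 to 827 CPM, Ctsl, Cstb and Ctsc separate WT from the obese libraries, and Ctsb and Ctsa lie close together.

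The macrophages of the libraries also differed in subset. Within macrophage-gated cells, a LAM gate (Trem2, Cd9, Gpnmb, Spp1, Fabp5 and Lpl) took 1.56% of cells in WT, 28.1% in 8w db/db, 68.95% in 16w db/db and 80.2% in HFD, and a PVM gate (Lyve1, Folr2, Cd163, Cbr2, F13a1 and Timd4) took 88.6%, 51.9%, 12.2% and 2.24%. The subset gates used the same limits as the lineage gates. Near the 80% limit, between 60% and 80%, lay 8 to 124 cells per library for the LAM gate and 33 to 160 for the PVM gate. In 16w db/db macrophages the hemoglobin genes and Alas2 together stood at 3789 CPM, against 21.9 to 533 CPM in the other libraries. The LAM share was highest in HFD, as were the macrophage levels of Ctsz, Ctss, Ctsd and Ctsa. Ctsb was level in HFD and 16w db/db (5648 and 5639 CPM). Ctsl, Ctsk and Cstb were instead highest, and Ctsc and Ctsh lowest, in 16w db/db. The part of subset shares, cell quality and the RNA of hemoglobin and Alas2 in the differences between libraries was not tested.

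Levels were therefore compared within the PVM gate, where 906 cells of WT, 1229 of 8w db/db and 264 of 16w db/db were available. In 8w db/db 1 of the 10 members was called higher than in WT (0.969% of all genes) and none lower (1.26%). In 16w db/db 2 were higher (12.1%) and 1 lower (8.46%). The median log2 ratio of the members was -0.18 and -0.08, against 0.08 and 0.22 over all genes.

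Ctsk stood in PVMs at 14.2 CPM in WT, 46.1 in 8w db/db, 448 in 16w db/db and 54.0 in HFD, the last from 28 cells. Cstb stood at 219, 321, 551 and 243 CPM. Ctsl, in contrast, was 682 CPM in WT, 633 in 8w db/db, 480 in 16w db/db and 495 in HFD, so that among PVMs WT was the highest library. Ctsc in PVMs was 961, 692, 769 and 1089 CPM, within 2-fold in all 4. The member called higher in 8w db/db was Ctsk, those called higher in 16w db/db were Ctsk and Cstb, and the one called lower there was Ctsh (470 CPM in WT and 194 CPM in 16w db/db).

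To compare the subsets within the same mice, LAM-gated and PVM-gated sums were tested in the 2 libraries with at least 30 cells of both, 8w db/db (666 LAMs and 1229 PVMs) and 16w db/db (1497 and 264). The test used the library as a block, and with 4 sums its precision comes from the spread shared over all genes. LAMs were deeper than PVMs, with median depths of 9452 against 4220 UMIs in 8w db/db and 7632 against 2925 UMIs in 16w db/db. The number of genes called after thinning is given with the other settings at the end. Of the 10 members 7 were higher in LAMs and 1 was lower, against 17.3% of 11072 genes higher and 14.1% lower. Ctsb and Ctsl are among these 7, and as the study lists both as LAM genes, their direction is not independent evidence. The median log2 difference of the members was 1.04, and that of all genes 0.01.

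Ctsl had the largest difference. It stood at 4662 CPM in LAMs and 633 CPM in PVMs of 8w db/db and at 4967 and 480 CPM in 16w db/db (log2 difference 3.37 ± 0.20 SE, adjusted p = 2.13e-06). In 16w db/db its LAM level was slightly higher and its PVM level lower than in 8w db/db, each with intervals that did not overlap. Ctsk stood at 562 and 46.1 CPM in 8w db/db and at 909 and 448 CPM in 16w db/db (2.55 ± 0.43, adjusted p = 0.00166). The size of the Ctsk difference thus depended on the library, as its log2 ratio of CPM was 3.61 in 8w db/db and 1.02 in 16w db/db.

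Ctsd was higher in LAMs by 2.05 ± 0.15 (adjusted p = 8.22e-06), from 3213 against 817.5 CPM in 8w db/db and 2484 against 803 CPM in 16w db/db. Cstb was higher by 2.02 ± 0.17 (adjusted p = 1.8e-05), from 1090 against 321 CPM and 1886 against 551 CPM. The ratio of Cstb between the subsets was alike in both libraries, whereas its level was higher in 16w db/db in each subset. Ctsz (1.27, adjusted p = 0.000353), Ctss (0.81, adjusted p = 0.00443) and Ctsb (0.50, adjusted p = 0.0133) were higher by less.

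Ctsc was the member lower in LAMs, at 178 against 692 CPM in 8w db/db and 119 against 769 CPM in 16w db/db (log2 difference -2.07 ± 0.19, adjusted p = 3.24e-05). Ctsh (-0.45, adjusted p = 0.109) and Ctsa (0.26, adjusted p = 0.293) did not pass. Without the library block edgeR called 0 genes, with 1730 genes and 5 members at an unadjusted p under 0.05. With DESeq2 the calls of Ctsb (adjusted p = 0.0863) and Ctsk (adjusted p = 0.0618) were lost.

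With a limit of 10 cells, chosen after the data were seen, all 4 libraries could be used, including the 16 LAMs of WT and the 28 PVMs of HFD. Of the members 7 were then higher in LAMs (14.8% of 10730 genes) and 2 lower (16.6%), the added gene being Ctsh (-0.67, adjusted p = 0.00828). The 16 WT LAMs held Ctsd at 4218 CPM, within the 2484 to 4242 CPM of obese LAMs, and Ctsc at 240 CPM, just above their 119 to 214 CPM. Their Cstb level of 818 CPM lay below the 1067 to 1886 CPM of obese LAMs, their Ctsl level of 1239 CPM lay below 3536 to 4967 CPM, and Ctsk was seen in 3 UMIs only, at 16.4 CPM.

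**Figure D3:**
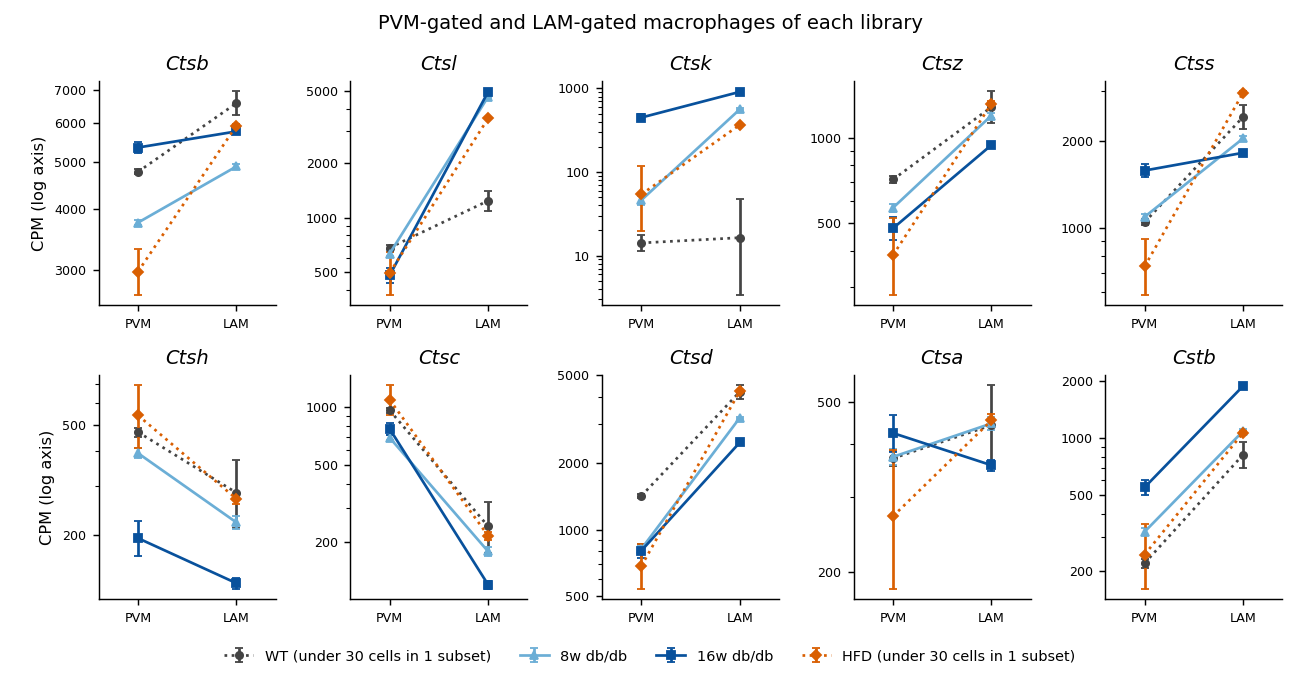
Level of each gene in CPM (log axis) in PVM-gated and LAM-gated macrophages of each library, joined by a line within a library (dotted where a subset held under 30 cells), with 95% counting intervals. Ctsl, Ctsd and Cstb slope upward and Ctsc downward in every library, while Ctsl and Ctsk of WT LAMs, from 16 cells, stay low.

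Macrophages were next ordered by the LAM share of their subset marker UMIs, in 5 bins of equal width, which also places the cells between the gates. In 16w db/db Ctsl stood at 481, 538, 711.5, 1416 and 4946 CPM from the lowest to the highest bin. In 8w db/db it stood at 635, 637, 732, 1674 and 4629 CPM, and in HFD at 537, 429, 598.5, 885 and 3513 CPM. The level changed little over the lower 3 bins of each library beside the step to the top bin.

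Cstb was graded more evenly, at 545, 559, 666, 1087 and 1881 CPM in 16w db/db and at 215, 290, 369.5, 501 and 1062 CPM in HFD. Ctsd stood at 752, 845, 1181, 1648 and 4219 CPM in HFD. Ctsc descended through the bins, from 764 over 604, 485 and 385 to 120 CPM in 16w db/db and from 1053 over 1056, 905.5 and 716 to 216 CPM in HFD. In the 2 bins of WT it stood at 957 and 1105 CPM. Ctss in 16w db/db was nearly even, between 1598 and 1992 CPM, whereas it ascended from 741 over 911, 1233 and 1582 to 2940 CPM in HFD and from 1095 to 2041 CPM in 8w db/db. The Ctsk level of 16w db/db was higher in the lowest bin (458 CPM) than in the fourth (338.5 CPM), and only the top bin (905 CPM) exceeded both. Bins held 23 to 1524 cells.

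**Figure D4:**
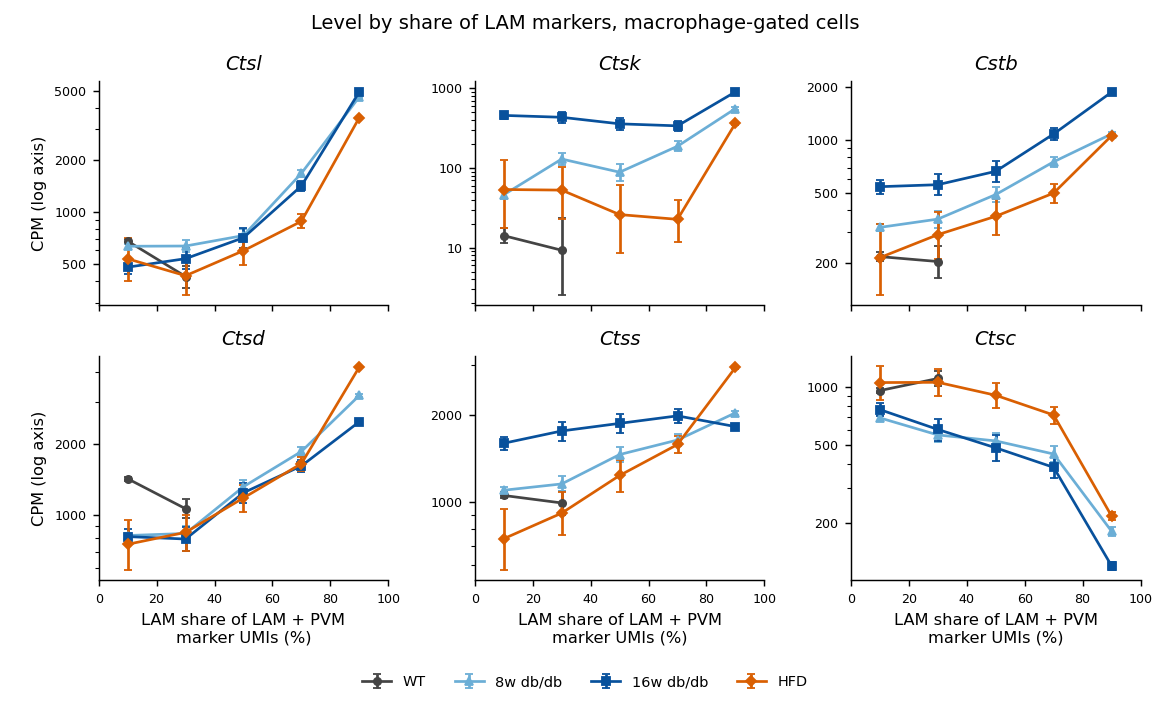
Level in CPM (log axis) of Ctsl, Ctsk, Cstb, Ctsd, Ctsc and Ctss against the LAM share of subset marker UMIs in bins of 20 percentage points, 1 line per library with 95% counting intervals (WT had at least 20 cells in the lowest 2 bins only). Ctsl is low up to a share of 60% and highest above 80%, Cstb and Ctsd are graded and Ctsc descends in the 3 obese libraries, while the WT line of Ctsc ascends from 957 to 1105 CPM.

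Proliferating LAMs are a population the study set apart, so cycling LAMs, defined by 2 or more UMIs of 8 cell cycle genes, were compared with the other LAMs of the same library. There were 165 cycling LAMs in 8w db/db, 485 in 16w db/db and 163 in HFD. Of the 10 members none was higher (5.58% of 10513 genes) and 2 were lower (3.06%), Ctss by -0.49 ± 0.11 (adjusted p = 0.0128) and Ctsh by -0.54 ± 0.13 (adjusted p = 0.014). Cycling LAMs were deeper, with median depths of 14102, 11265 and 10768 UMIs against 7859, 6236 and 6528 UMIs for the other LAMs, and the part of depth in these calls was not tested. The estimates for Ctsl (0.08), Cstb (-0.03) and Ctsb (-0.20) did not pass. Both calls were lost without the HFD library (adjusted p = 0.18 for Ctss and 0.113 for Ctsh).

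In stromal-gated cells, marked by collagen genes and Pdgfra, 3 members were called higher than in WT in each obese library and none lower. The background was 3.07% higher and 1.82% lower in 8w db/db, 9.55% and 10.2% in 16w db/db, and 7.17% and 5.58% in HFD. The 3 genes were Ctss, Ctsc and Cstb each time. Ctss stood at 11.4 CPM in WT, 78.6 in 8w db/db, 109 in 16w db/db and 184 in HFD. Ctsc stood at 25.1, 70.8, 115.5 and 97.7 CPM, and Cstb at 89.9, 194, 423 and 234 CPM. The other 7 members were within 2-fold of WT on the log2(CPM + 10) scale in each library, among them Ctsk and Ctsl. Ctsh of HFD lay just inside that limit, at a log2 ratio of 0.99, and at 2.05-fold without the added 10 CPM.

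Macrophage transcripts were present in stromal barcodes to a degree that differed between libraries. A list of 5 macrophage genes that no gate used (Pf4, Lyz2, Tyrobp, Fcer1g and Cd14) stood in stromal cells at 1.04% of its macrophage level in WT, 5.12% in 8w db/db, 5.02% in 16w db/db and 6.92% in HFD. For Ctss the same percentages were 1.06, 4.97, 5.96 and 6.66, close to those of the list in each library. Ctsc in stromal cells stood at 2.67%, 16.6%, 60.9% and 34.5% of its macrophage level and Cstb at 38.1%, 27.4%, 24.9% and 23.6%, both above the list in every library. The part of the macrophage transcripts in the stromal levels of Ctss, Ctsc and Cstb was not tested beyond these values.

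**Figure D5:**
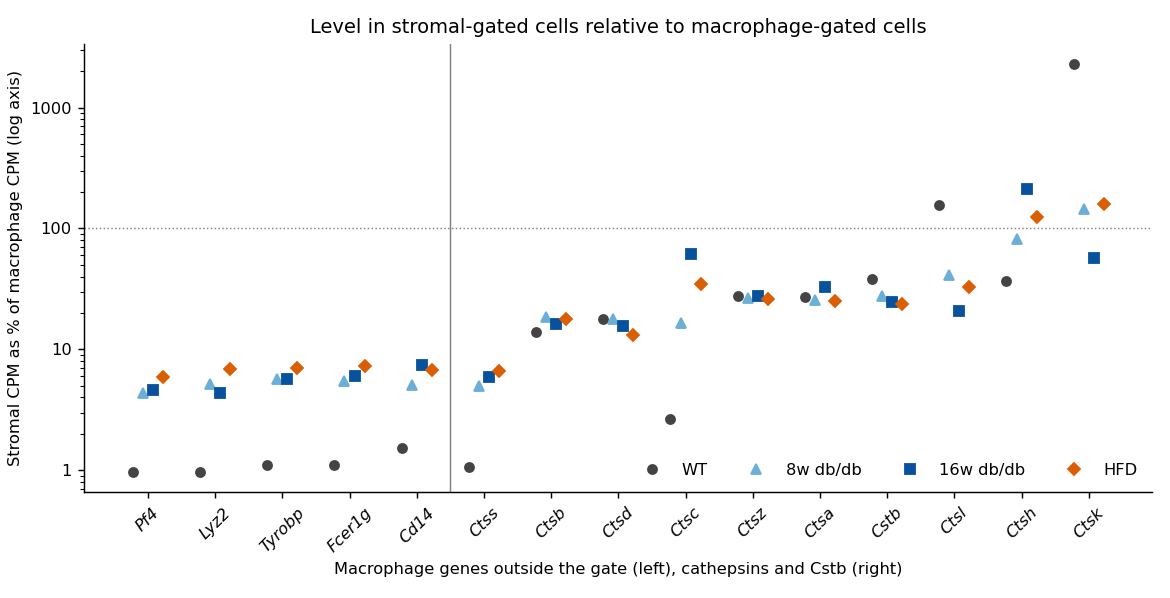
Level in stromal-gated cells as a percentage of the level in macrophage-gated cells of the same library (log axis), for the 5 macrophage genes used by no gate on the left and each of the 10 genes on the right. Ctss follows the macrophage genes from 1.06% in WT to 6.66% in HFD, whereas the other members lie above them.

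Cystatin B acts on the cysteine cathepsins, so its UMIs were set against the sum of the 7 cysteine cathepsins in the same cells. In macrophages there were 2.77 Cstb UMIs per 100 cysteine cathepsin UMIs in WT (95% interval 2.63 to 2.90), 6.90 in 8w db/db (6.77 to 7.03), 12.3 in 16w db/db (12.2 to 12.5) and 7.21 in HFD (7.06 to 7.36). In stromal cells the values were 3.74, 6.75, 13.8 and 6.60. In both lineages WT was lowest and 16w db/db highest. Among LAMs the values were 6.77, 7.92, 12.9 and 7.32, and among PVMs 2.53, 4.47, 5.92 and 3.87. In each library LAMs had more Cstb per cathepsin than PVMs, and LAMs of WT, 8w db/db and HFD lay close together. The value of WT LAMs came from 16 cells (95% interval 5.70 to 7.99). That of HFD PVMs came from 28 cells (2.53 to 5.68).

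A further 31 genes of the pathway were examined in macrophages by lists of 12 genes of activation and delivery, 6 transcriptional regulators of the lysosome, 5 other cathepsins and 10 other inhibitors, of which 2 inhibitors were not among the features. Of the 12 activation and delivery genes 11, 12 and 12 passed 20 CPM in 8w db/db, 16w db/db and HFD, and 2, 3 and 4 were higher than in WT at least 2-fold, none being lower, beside 3.73%, 17.3% and 10.2% of all genes higher. In 16w db/db 3 of 12 is near that share. Igf2r, the large mannose 6-phosphate receptor, stood at 9.46 CPM in WT, 68.1 in 8w db/db, 89.1 in 16w db/db and 141 in HFD. Gnptab, which makes the mannose 6-phosphate tag, stood at 8.44, 27.0, 34.7 and 44.4 CPM. Sort1, the sorting receptor sortilin, stood at 6.84, 21.15, 25.6 and 37.9 CPM, and its log2 ratios were 0.89, 1.08 and 1.51. All 3 genes were lowest in WT and highest in HFD.

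Lgmn, the asparaginyl endopeptidase that processes several cathepsins, was at 1280, 1128, 1325 and 908 CPM, and Cst3, a secreted cystatin, at 3391, 2718, 3146 and 2668 CPM. Neither passed 2-fold in any library. Cst7, an inhibitor of cathepsin C, was at or below 0.26 CPM in all 4. Of the 6 regulators 4, 3 and 4 passed 20 CPM, and 1, 0 and 1 were higher, with Bhlhe40 at log2 ratios of 1.17, 0.32 and 1.16. Tfe3, at a log2 ratio of -1.06 in 16w db/db, was the regulator called lower there, and of the other cathepsins Ctsf (-1.01) was called lower there. Both were named after their values were seen.

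In the test of LAMs against PVMs the activation and delivery genes split, with 5 of 12 higher and 3 lower, beside 17.3% and 14.1% of all genes. The pathway genes outside the naming rule are given because they passed this test, and were so chosen after their values were seen. Igf2r (2.65, adjusted p = 1.72e-05), Sort1 (2.56, adjusted p = 0.000279), Gnptab (2.24, adjusted p = 0.000148), Psap, the saposin precursor (1.32, adjusted p = 0.000151), and M6pr, the small mannose 6-phosphate receptor (0.53, adjusted p = 0.0389), were higher in LAMs. The lysosomal membrane genes Lamp2 (-0.84, adjusted p = 0.00476), Scarb2 (-0.73, adjusted p = 0.0132) and Lamp1 (-0.49, adjusted p = 0.0412) were lower. Lgmn (-0.04, adjusted p = 0.874) and Cst3 (-0.18, adjusted p = 0.44) did not pass. Of the regulators Bhlhe40 (1.98, adjusted p = 0.00035) and Bhlhe41 (1.34, adjusted p = 0.0191) were higher, and Tfe3 (-0.88, adjusted p = 0.0144) and Tfec (-1.20, adjusted p = 0.00986) were lower. The cathepsins Ctsf (-1.68, adjusted p = 0.00206) and Ctso (-0.96, adjusted p = 0.00745) were lower in LAMs, as Ctsc was.

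Finally, genes with the most similar pattern were sought over 10 sums of at least 100 cells, each a lineage in a library, by Pearson's r of log2(CPM + 10). These sums share libraries and differ chiefly in lineage, and r is given as a description. For Ctss the leading genes were Cd68, Lcp1 and Laptm5 (r of 0.995 to 0.997), and for Ctsd they were Abhd12, Blnk and Cd200r1 (0.992 to 0.995). For Ctsb they were Cotl1, Slc35f6 and Snx5 (0.987 to 0.989) and for Cstb B4galnt1, Lamtor2 and Dera (0.981 to 0.99). Ctsl had the least close partners of these 5, Rnh1, Pold4 and Slc39a11 (0.952 to 0.966). None of the named genes was a gate marker. Between members r ran from 0.18 for the neighbours Ctsk and Ctss to 0.99 for Ctsz and Ctsa.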

How the data were processed

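The authors deposited raw UMI counts, whole numbers for each gene in each barcode, from 10x Genomics 3′ libraries aligned with Cell Ranger to mm10. The submitters' processing notes name version 7.1.0 and the count files' headers 6.0.0. The files held called barcodes before any filter. Reading only 3′ ends, they carry no isoform or sequence change. The limits of the study were applied, namely more than 250 but fewer than 6000 genes, more than 500 but fewer than 30000 UMIs, and a mitochondrial share below 15%. Gates on raw marker UMIs replaced the study's clusters, so subset shares may differ from its classes. Barcodes of mixed lineage were left out and no doublet caller was run. The members and lists were chosen with earlier results of these data known.

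Sums were scaled to CPM. Shares and ratios were given exact Poisson or binomial intervals at 95%, and 10 CPM was added to log2 ratios. UMI sums per library and subset with at least 30 cells were tested in edgeR 4.0.16 (R 4.3.3) with TMM scaling, filterByExpr, quasi-likelihood and Benjamini-Hochberg adjustment over all genes at 5%, with the library as a block, since paired sums come from the same mice. p-values set the within-library difference against its spread over libraries, which are also different conditions. That spread was moderated over all genes. The script was tested on simulated data. Alternatives comprised DESeq2 1.42.0, other gates and filters, thinning to 1000 UMIs and leaving out each library. Named genes were all members, pathway genes at least 2-fold from WT in at least 2 obese libraries, Lgmn, Cst3 and Cst7, and the 3 genes most like each of 5 members. Other pathway genes were named after their values were seen.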

Additional observations from a re-analysis of the deposited data

Results flagged for a closer look

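Each value here compares single libraries, and no difference between libraries was tested. The log2 ratio of the Ctsl level in macrophage-gated cells to that in stromal-gated cells was -0.64 in WT and 1.29, 2.26 and 1.60 in 8w db/db, 16w db/db and HFD, so that WT lay on the other side of 0. The same ratio of Ctsk was -4.51 in WT, -0.55 in 8w db/db and -0.66 in HFD but 0.80 in 16w db/db, the library that also stood apart in its sex-linked transcripts. For Ctsh it was 1.43 in WT and 0.29 in 8w db/db, and -1.09 in 16w db/db and -0.30 in HFD. The log2 ratio of Ctsa between LAM-gated and PVM-gated macrophages was 0.26 in 8w db/db and -0.25 in 16w db/db.

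Barcodes that passed the quality limits but met no lineage gate entered no comparison. Of kept barcodes 8.19% in WT, 16.9% in 8w db/db, 9.36% in 16w db/db and 29.4% in HFD were of mixed lineage. In the unmarked barcodes, whose leading list held under 3 UMIs or under 2 genes, the summed level of the 10 genes was 3902 CPM in 8w db/db, 7155 CPM in 16w db/db and 4771 CPM in HFD, above the 2050 CPM of WT, where 99 unmarked barcodes were found. Their cell types are not known.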

How the results depend on the processing

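With 1 library per group, differences between conditions have no replicate check. Age, depth, mitochondrial share and the sex-linked transcripts of 16w db/db cannot be told apart from group. Intervals cover counting error only.

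The median log2 ratio of the members to WT became 0.26, 0.30 and 0.95 (8w db/db, 16w db/db and HFD) with a gate purity of 95%, 0.0655 and 0.86 (8w db/db and HFD) after thinning, and 0.16 and 0.96 as a mean of per-cell CPM. In HFD it was 0.96 without the mitochondrial limit, 0.99 with a longer macrophage list and 0.996 with a purity of 50%, the last pair of settings chosen after seeing the data. Members called lower were 0 in 8w db/db (Ctsc lost) and 1 in 16w db/db (Ctsh lost) after thinning, and 0 in 8w db/db by the mean of cells (Ctsc lost). Of 240 single ratios 132 stayed within their counting interval and 108 moved. The sign turned in 1 of 8 settings for Ctsa and Ctsz of 16w db/db and Ctsz of 8w db/db.

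In LAMs against PVMs 3478 genes were called. Calls were 1946 with DESeq2, 1197 after thinning and 0 with edgeR without the replicate block (1730 genes at an unadjusted p under 0.05), where 0 members were called. With at least 10 cells, leaving out a library gave 1521 to 3538 calls and 7 to 9 members, and Ctsb was lost without 8w db/db (adjusted p = 0.0693) or HFD (adjusted p = 0.139). Leaving out a library was not possible with 2 libraries. In macrophages against stromal cells, with 6930 calls, it gave 4230 (without 8w db/db) to 6903 calls and 6 to 8 members. Ctsc was lost without 8w db/db (adjusted p = 0.133). Ctsk turned to 0.0024 without the replicate block and ran from -1.52 (without 16w db/db) to 0.10 (without WT, adjusted p = 0.812), and Ctsh from -0.12 (without WT, adjusted p = 0.742) to 0.65 (without 16w db/db). Ctsl passed with DESeq2 (adjusted p = 0.01275), with a purity of 95% (adjusted p = 0.0318) and without the replicate block (adjusted p = 0.0313). In cycling LAMs 909 genes were called, against 439 with DESeq2, 1404 without a filter and 53 without the replicate block, where 0 members were called. A purity of 95% called 1 member. Leaving out a library gave 352 (without HFD) to 1551 calls (without 8w db/db) and 0 to 3 members. Ctsl turned to -0.0043 with a purity of 95%, and Cstb ran from -0.065 (without HFD) to 0.058 (without 16w db/db). Ctsh was lost without 16w db/db (adjusted p = 0.0556) and with a purity of 95% (adjusted p = 0.0514). Thinned cycling LAMs were too few to be tested. Except where the construction shows it, the cause was not tested. The block changed no other call than those given.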
